A study of Mus musculus with 6 samples.

Results

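Genes of the lipid-responsive state of brain macrophages were followed through 6 libraries of sorted regulatory T cells (Tregs), 10 in all: Apoe, Trem2, Tyrobp, Lpl, Abca1, Abcg1, Cd9, Gpnmb, Fabp5 and Nr1h3. They were chosen by symbol as genes of disease-associated microglia and of lipid efflux, with earlier results of these data known. All 10 were found among the 51361 gene symbols of the count table. All 10 also passed the filter on low counts, which left 16657 genes for testing.

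The cells were sorted as CD4+CD25+Foxp3+ from mice that carry a Foxp3-driven transgene for the diphtheria toxin receptor and green fluorescent protein, Tg(Foxp3-DTR/EGFP)23.2Spar, on a C57BL/6N background. The mice were 9-week-old males. In 2 of the 3 groups ischaemic stroke had been modelled by blocking the middle cerebral artery for 60 min (transient occlusion, tMCAO), and cells were collected 14 days later from brain (tMCAO brain) or from blood (tMCAO blood). The third group was blood of sham-operated mice (sham blood). Brain of sham-operated mice was not analysed here, so site and injury cannot be told apart in a comparison of tMCAO brain with sham blood. Each group had 2 libraries of 500 to 1000 cells. Whether the 2 libraries of a group stem from different mice is not given in the labels; p-values therefore reflect only how far these libraries lie apart, and that spread may be technical.

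Microglia and macrophages that take up myelin debris and dying cells receive a load of cholesterol and other lipids. TREM2 is a surface receptor for lipids and lipoproteins that signals through the adaptor TYROBP, and it is needed for the full form of the state called disease-associated microglia. Cholesterol derivatives activate liver X receptors, nuclear receptors that raise transcription of the exporters ABCA1 and ABCG1 and of the acceptor particle protein APOE. None of the 10 genes is a defining gene of T cells, although several, among them Abca1, Abcg1, Cd9 and Fabp5, are transcribed in lymphocytes as well.

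Promoter regions are printed for 2 genes because Abca1 and Trem2 were the 2 genes of the 10 whose differences passed the test in all 3 comparisons. Each run holds the 250 bases before the RefSeq start site, 5′ to 3′ on the gene's strand, build GRCm38.p6. That of Abca1 is chr4:53159896-53160145 on the minus strand and that of Trem2 is chr17:48346151-48346400 on the plus strand. Capitals mark a match to the direct repeat that liver X receptors bind.
Abca1: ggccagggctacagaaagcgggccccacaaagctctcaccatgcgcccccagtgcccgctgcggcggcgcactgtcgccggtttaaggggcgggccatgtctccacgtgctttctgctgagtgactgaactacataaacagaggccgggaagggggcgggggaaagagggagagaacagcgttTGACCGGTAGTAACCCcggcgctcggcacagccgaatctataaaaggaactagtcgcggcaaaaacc
Trem2: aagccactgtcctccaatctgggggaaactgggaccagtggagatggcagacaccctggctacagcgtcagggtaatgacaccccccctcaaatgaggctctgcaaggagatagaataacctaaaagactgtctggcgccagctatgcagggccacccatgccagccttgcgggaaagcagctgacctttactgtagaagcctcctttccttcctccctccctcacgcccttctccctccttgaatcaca
This DR4 element, a direct repeat of AGGTCA with 4 bases between the copies, was searched on both strands with up to 3 mismatches in windows from 250 bases before to 50 bases after each start. The Abca1 match, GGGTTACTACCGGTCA on the strand opposite the gene, had 3 mismatches and began 67 bases before the start site. Of 32851 promoter windows of the same length, 21.9% held a match at this tolerance. RefSeq windows were found for 6 of the 10 genes (9 windows, for Abca1, Apoe, Cd9, Gpnmb, Nr1h3 and Trem2), and the Abca1 window was the only one with a match. The E-box TCACGTG of the TFE factors (in 3.77% of all windows) and the PU.1 site GAGGAAGT (in 3.20%) were in none of the 9, which says only that these letters are not there.

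The libraries held 14348179 to 24460894 counts and unequal amounts of T cell and myeloid RNA. Genes of T cell identity (17) took 0.0312% and 0.159% of counts in brain after tMCAO, 0.0680% and 0.464% in blood after tMCAO, and 0.897% and 0.873% in sham blood. The 12 pan-myeloid reference genes, chosen without any of the 10, took 4.61% and 2.29%, 3.50% and 1.52%, and 0.804% and 0.709% in the same order. The 14 homeostatic microglia markers took 0.945% and 1.02% of counts in brain after tMCAO and 0.0952% to 0.157% in the 4 blood libraries, in all of which the microglial factor gene Sall1 was at 0. Most of this blood share was Selplg and Csf1r, the latter also on the pan-myeloid list. They had 15910 and 1612 of 21687 counts in sham blood library 1, and 5072 and 10069 of 18395 in tMCAO blood library 1. Fcrls, of the same list, had 30262 and 32571 counts in brain and 1 to 104 in the blood libraries. Markers of monocytes and macrophages (17 genes) took 3.37% and 1.40% in brain after tMCAO, 3.46% and 1.43% in blood after tMCAO and 0.747% and 0.591% in sham blood. Lyz2, also a pan-myeloid reference gene, held 501310 of these 668477 counts in brain library 1. This sum hides opposite changes: Chil3 had 396 and 46 counts in brain and 37980 and 36069 in tMCAO blood, Ms4a7 18308 and 3634 against 425 and 176. By the test described below, 0 of the 17 were higher and 4 lower in brain than in tMCAO blood, beside 3.53% and 1.37% of all genes. The 9 astrocyte markers took at most 0.0136% of counts in any library. Red cell genes (7) held 15.1% and 16.4% of counts in sham blood and 0.107% and 3.80% in blood after tMCAO, and had 16 and 0 counts in the brain libraries. The 9 dendritic cell markers held 0.342% and 0.594% in brain after tMCAO and 0.0688% to 0.166% in the blood libraries, and the 8 B cell markers 1.08% in brain library 2 and at most 0.1097% elsewhere. In bulk libraries fewer cells of a type and less RNA per cell cannot be told apart. The part of these other cells' RNA in the differences that follow was not tested. Levels per pan-myeloid count, given further on, do not test it for myeloid RNA, as it is not known which myeloid cells the reference counts came from.

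The 10 genes together took 10.9% and 5.34% of all counts in brain after tMCAO, 0.856% and 1.08% in blood after tMCAO and 0.177% and 0.284% in sham blood. Apoe made up most of this in brain. Levels below are CPM, the usual counts relative to library size, with sizes adjusted by the trimmed mean of M-values (TMM). Tests are the quasi-likelihood test of edgeR over all 16657 genes, with Benjamini-Hochberg adjusted p under 0.05 as the threshold and log2 changes given ± SE. A log2 change between the tMCAO groups is that of brain over blood.

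**Figure D1:**
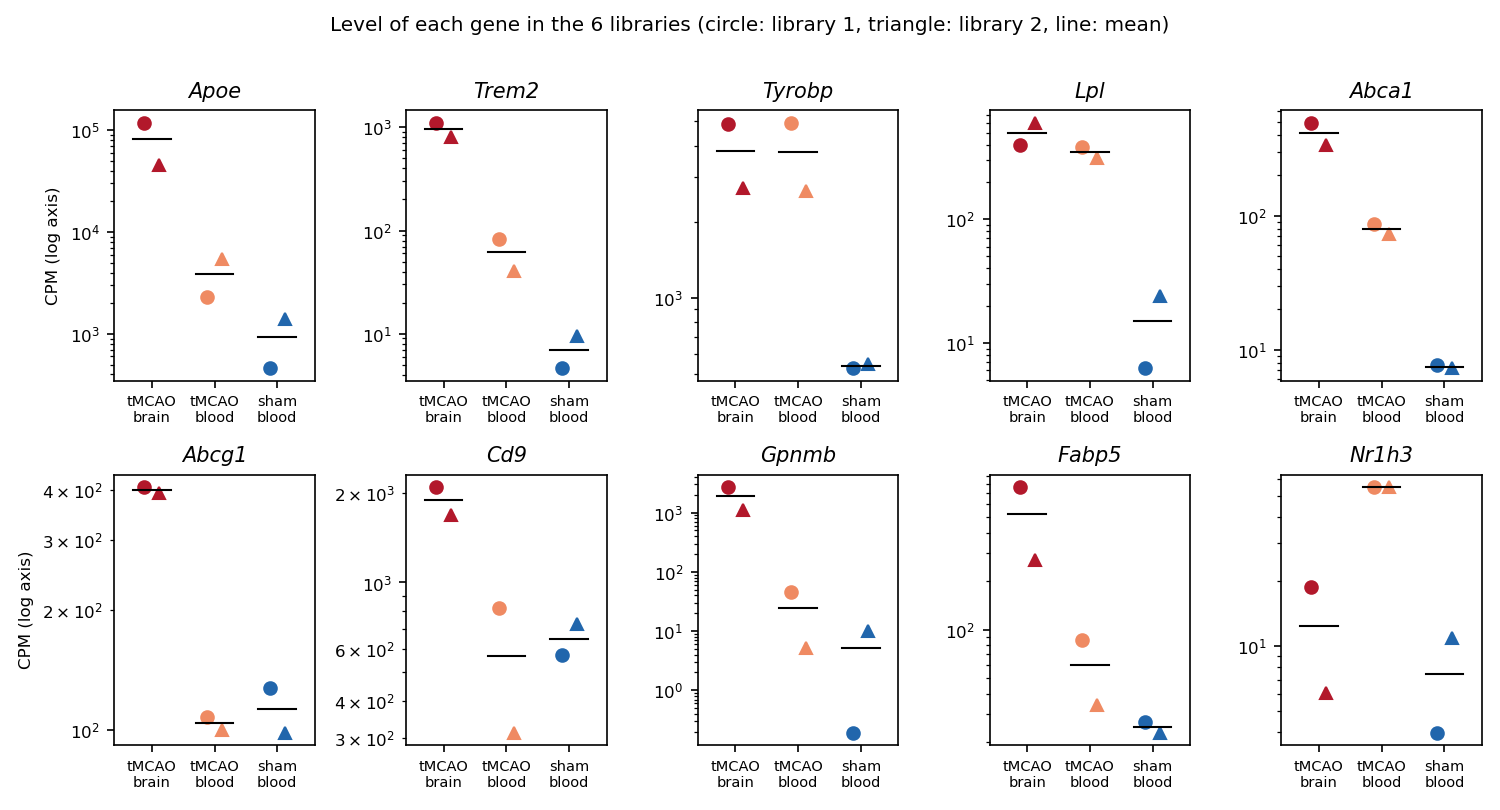
Level of each of the 10 genes in the 6 libraries, in CPM on a log axis that differs between panels; circles are library 1, triangles library 2 and lines the group mean. Both tMCAO brain libraries lie above all blood libraries for Apoe, Trem2, Lpl, Abca1, Abcg1, Cd9, Gpnmb and Fabp5, Tyrobp is alike in both tMCAO groups, and Nr1h3 is highest in tMCAO blood.

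The sensor and its adaptor did not follow the same order. Trem2 (chromosome 17, 48346401 to 48354147, plus strand, GRCm38, protein-coding) stood at 1110 and 802 CPM in brain after tMCAO, 83.2 and 40.4 CPM in blood after tMCAO, and 4.62 and 9.43 CPM in sham blood. No group overlapped another. Trem2 was 15.5-fold higher in brain after tMCAO than in blood after tMCAO (log2 change 3.95 ± 0.56, edgeR adjusted p = 0.0265), 8.80-fold higher in blood after tMCAO than in sham blood (3.14 ± 0.55, adjusted p = 0.0360) and 136-fold higher in brain after tMCAO than in sham blood (7.09 ± 0.66, adjusted p = 0.00841). Tyrobp (chromosome 7, 30413760 to 30417585, plus strand), whose protein carries the signal of TREM2 and of many other myeloid and natural killer receptors, stood at 4885 and 2712 CPM in brain after tMCAO, 4939 and 2643 CPM in blood after tMCAO, and 525 and 547 CPM in sham blood. The tMCAO groups covered the same range for Tyrobp, and both lay above sham blood. Its log2 change between the tMCAO groups was 0.0028 ± 0.49 (edgeR adjusted p = 0.999). It was 7.07-fold higher in blood after tMCAO than in sham blood (edgeR adjusted p = 0.0381) and 7.09-fold higher in brain after tMCAO than in sham blood (adjusted p = 0.0279). The difference between the responses of Trem2 and Tyrobp was not tested.

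Of the 10 genes, 3 rose in tMCAO brain over tMCAO blood (Trem2, Abca1 and Abcg1), against 3.53% of all tested genes called higher and 4.9% called in either direction. By edgeR 0 of the 10 fell, against 1.37% of all genes, whereas at an unadjusted p under 0.05 there were 7 higher and 1 lower, and by DESeq2 also 7 higher and 1 lower. Over all 16657 genes 2792 were higher and 1879 lower at an unadjusted p under 0.05, and 2099 and 1370 by DESeq2. Both brain libraries lay above both tMCAO blood libraries for 8 of the 10 and below them for 1, against 31.4% and 25.9% of all tested genes. The median log2 change of the 10 was 2.16 and that of all tested genes 0.06. Between tMCAO blood and sham blood 4 of the 10 rose (Trem2, Tyrobp, Lpl and Abca1), against 4.33% of all genes called higher and 7.48% in either direction. There 0 fell by edgeR (background 3.15%), 0 also by DESeq2, by limma-voom and at an unadjusted p under 0.05. Over all genes 2740 were higher and 2198 lower unadjusted, 2065 and 1724 by DESeq2, and 524 and 622 by limma-voom. The tMCAO blood libraries lay above both sham libraries for 7 of the 10 and below them for 0, against 33.6% and 30.4% of all genes, and the median log2 change was 2.55 against 0.11 over all genes. Between tMCAO brain and sham blood 7 rose (all but Cd9, Gpnmb and Nr1h3), against 8.01% of all genes called higher and 10.6% in either direction. By edgeR 0 fell (background 2.62%), as by DESeq2, by limma-voom and at an unadjusted p under 0.05. Over all genes 3275 were higher and 1759 lower unadjusted, 2603 and 1404 by DESeq2, and 1286 and 604 by limma-voom. The groups were apart for 9 genes, all higher in brain, against 34.9% higher and 29.7% lower over all genes, and the median was 4.71 against 0.09. The 3 comparisons share libraries, so their counts are not separate pieces of evidence. Because the 10 were chosen with earlier results of these data known, numbers above the all-gene shares are not independent evidence either.

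**Figure D2:**
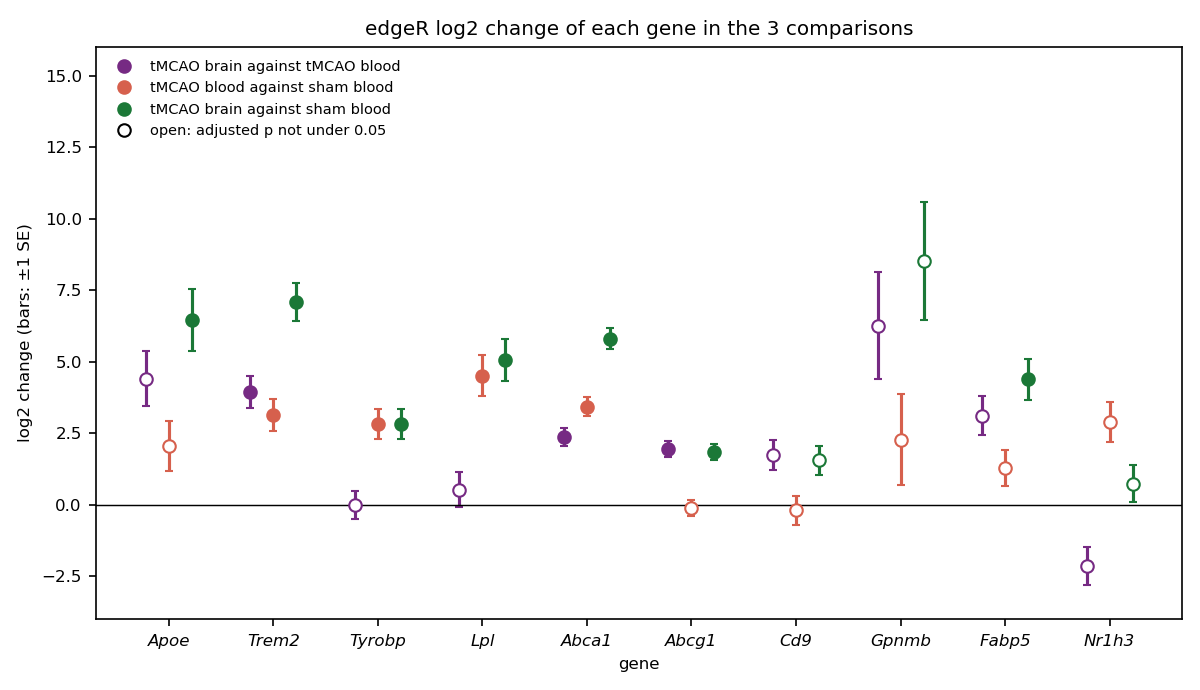
edgeR log2 change of each of the 10 genes, with bars of 1 SE, in tMCAO brain against tMCAO blood (purple), tMCAO blood against sham blood (orange) and tMCAO brain against sham blood (green); filled points passed at an adjusted p under 0.05. Trem2 and Abca1 are filled in all 3 comparisons, and the points with the longest bars are those of Gpnmb.

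Of the 2 cholesterol exporters, Abca1 rose in all 3 comparisons and Abcg1 in the 2 with brain; the difference between their responses was not tested. Abca1 (chromosome 4, 53030787 to 53159895, minus strand), which loads cholesterol onto lipid-poor apolipoproteins, stood at 493 and 335 CPM in brain after tMCAO, 86.0 and 73.1 CPM in blood after tMCAO, and 7.64 and 7.25 CPM in sham blood. The 3 groups were fully separate and the libraries of each group lay close together. Abca1 rose 5.20-fold from tMCAO blood to tMCAO brain (log2 change 2.38 ± 0.32, edgeR adjusted p = 0.0237), 10.7-fold from sham blood to tMCAO blood (3.42 ± 0.33, adjusted p = 0.0313) and 55.6-fold from sham blood to tMCAO brain (5.80 ± 0.37, adjusted p = 0.00841). Abcg1 (chromosome 17, 31057675 to 31117988, plus strand), which passes cholesterol to mature lipoprotein particles, stood at 408 and 393 CPM in brain after tMCAO, 107 and 99.9 CPM in blood after tMCAO, and 127 and 98.2 CPM in sham blood. The blood groups overlapped and lay below brain. Its log2 change was 1.95 ± 0.28 between the tMCAO groups (edgeR, adjusted p = 0.0270), 1.83 ± 0.28 for brain over sham blood (adjusted p = 0.0181) and -0.12 ± 0.27 for blood after tMCAO over sham (adjusted p = 0.801).

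Nr1h3 (chromosome 2, 91184061 to 91202834, minus strand), which encodes liver X receptor alpha, the regulator of both exporters and of Apoe in macrophages, was highest in blood after stroke. It stood at 18.8 and 6.09 CPM in brain after tMCAO, 54.6 and 54.9 CPM in blood after tMCAO, and 3.98 and 10.9 CPM in sham blood. Both tMCAO blood libraries lay above the 4 others, and brain overlapped sham blood. The log2 change was -2.14 ± 0.67 between the tMCAO groups (edgeR adjusted p = 0.105) and in blood, tMCAO over sham, 2.88 ± 0.70 (adjusted p = 0.0581), so neither passed. By DESeq2 both passed (adjusted p = 0.0226 and 0.0014). Nr1h2, the gene of the widely expressed liver X receptor beta, stood at 51.7 and 57.3 CPM in brain after tMCAO, 19.6 and 26.4 CPM in blood after tMCAO, and 34.1 and 57.6 CPM in sham blood (edgeR adjusted p = 0.0827 for tMCAO brain against tMCAO blood). Their partner Rxra, the retinoid X receptor gene, rose from 6.93 and 2.67 CPM in sham blood to 33.2 and 29.3 CPM in blood after tMCAO (edgeR adjusted p = 0.0391), and stood at 13.9 and 11.4 CPM in brain after tMCAO.

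Apoe and Lpl act on lipoprotein particles outside the cell, and the difference between their responses was not tested. Apoe (chromosome 7, 19696109 to 19699188, minus strand), the apolipoprotein of brain lipoprotein particles, stood at 118449 and 45393 CPM in brain after tMCAO, 2302 and 5426 CPM in blood after tMCAO, and 459 and 1409 CPM in sham blood. The groups did not overlap, but the libraries of a group differed 2.36-fold to 3.07-fold. Apoe was 87.7-fold higher in brain after tMCAO than in sham blood (6.46 ± 1.07 on the log2 scale, edgeR adjusted p = 0.0209), and its 21.2-fold difference between the tMCAO groups did not pass (4.41 ± 0.97, adjusted p = 0.0565), though it did by DESeq2 and limma-voom (adjusted p = 2.49e-07 and 0.0255). The comparison of tMCAO blood with sham blood gave a log2 change of 2.05 ± 0.87 (edgeR adjusted p = 0.180). Lpl (chromosome 8, 68880491 to 68907448, plus strand), the lipase that frees fatty acids from lipoproteins, stood at 395 and 603 CPM in brain after tMCAO, 381 and 311 CPM in blood after tMCAO, and 6.23 and 24.1 CPM in sham blood. The tMCAO groups were adjacent, and sham blood lay far below both. Lpl rose 22.8-fold between sham and tMCAO blood (log2 change 4.51 ± 0.71, edgeR adjusted p = 0.0319) and 33.0-fold from sham blood to tMCAO brain (adjusted p = 0.0158), with a log2 change of 0.53 ± 0.62 between the tMCAO groups (adjusted p = 0.606).

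Gpnmb, Fabp5 and Cd9 were highest in brain after tMCAO. The spread was wide for Gpnmb in every group, for Fabp5 in both tMCAO groups and for Cd9 in tMCAO blood only. Gpnmb (chromosome 6, 49036546 to 49070929, plus strand) encodes a lysosome-associated membrane glycoprotein of lipid-laden macrophages. It stood at 2702 and 1118 CPM in brain after tMCAO, 44.7 and 5.13 CPM in blood after tMCAO, and 0.193 and 10.1 CPM in sham blood, the last 2 values being 3 and 144 counts. Both brain libraries lay far above the blood libraries, which overlapped between the groups. None of its 3 differences passed (log2 change 6.26 ± 1.86, edgeR adjusted p = 0.0937 between the tMCAO groups, 2.27 ± 1.58, adjusted p = 0.371 for blood after tMCAO over sham, and 8.53 ± 2.06, adjusted p = 0.0514 for tMCAO brain against sham blood). Without sham blood library 1 the last of these was 7.44 and without sham blood library 2 it was 13.22. By DESeq2 and by limma-voom the difference between tMCAO brain and sham blood passed (adjusted p = 0.000106 and 0.031).

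Fabp5 (chromosome 3, 10012548 to 10016607, plus strand), a carrier of fatty acids within the cell, stood at 768 and 270 CPM in brain after tMCAO, 85.7 and 34.0 CPM in blood after tMCAO, and 26.8 and 22.9 CPM in sham blood. The groups were ordered without overlap. Only tMCAO brain against sham blood passed, at 20.9-fold (log2 change 4.38 ± 0.71, edgeR adjusted p = 0.0198), and tMCAO brain against tMCAO blood came to 3.12 ± 0.67 (adjusted p = 0.0549). Reads of Fabp5 could be shared with a processed pseudogene copy. Cd9 (chromosome 6, 125460266 to 125494791, minus strand), a tetraspanin of the cell surface and of vesicles, stood at 2092 and 1687 CPM in brain after tMCAO, 819 and 313 CPM in blood after tMCAO, and 570 and 725 CPM in sham blood. The blood groups overlapped and brain lay above both. None of the Cd9 differences passed by edgeR (adjusted p of 0.0964, 0.826 and 0.107 in the order brain against tMCAO blood, tMCAO blood against sham blood, brain against sham blood), and by DESeq2 both brain comparisons did (adjusted p = 0.00812 and 0.0233). The span of Cd9 overlaps an antisense gene, and whether counting used strand is not given in the sources used here. The spans of Abcg1 and Nr1h3 each overlap a non-coding gene on the same strand (Gm25447 and Gm13783), and the effect on their counts was not tested.

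The calls rested on few libraries. For tMCAO brain against tMCAO blood, leaving out any 1 library ended the calls of Trem2 (adjusted p up to 0.0733) and Abcg1 (up to 0.0992), and Abca1 kept its call only without either brain library. The 816 calls of this comparison over all genes became 31 to 313. Against sham blood, every call among the 10 was lost without sham blood library 1 or 2 (0 of 10 by edgeR, with 5 to 8 at an unadjusted p under 0.05). The number called over all genes was then 0 as well, so this loss was not particular to the 10. Calls of tMCAO blood against sham blood were also lost without tMCAO blood library 1, again with 0 over all genes. With each library left out, the log2 change between the tMCAO groups ranged from 1.86 to 2.00 for Abcg1, 2.07 to 2.64 for Abca1, 3.51 to 4.56 for Trem2, 3.55 to 5.14 for Apoe, 2.16 to 3.93 for Fabp5, 1.20 to 2.59 for Cd9, 5.41 to 8.53 for Gpnmb and -3.18 to -1.54 for Nr1h3. For blood after tMCAO over sham it ranged from 3.29 to 3.53 for Abca1, 2.52 to 3.73 for Trem2, 2.30 to 3.20 for Tyrobp, 3.81 to 5.79 for Lpl and -0.01 to 6.96 for Gpnmb. With only the second library of each tMCAO group (the first of each had under 1 CPM of Foxp3) and both sham libraries, a choice made after results were seen that leaves no replicates in the tMCAO groups, the log2 changes between the tMCAO groups were 4.24 for Trem2, 2.12 for Abca1, 1.90 for Abcg1 and 2.99 for Apoe.

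Levels were next set against myeloid RNA in the same library. Trem2 gave 2.00 and 3.51 counts per 100 pan-myeloid counts in brain after tMCAO, 0.229 and 0.321 in blood after tMCAO, and 0.0588 and 0.132 in sham blood. Gpnmb gave 4.88 and 4.89 in brain after tMCAO, 0.123 and 0.0408 in blood after tMCAO, and 0.00245 and 0.141 in sham blood. Apoe gave 214 and 198 in brain after tMCAO, 6.33 and 43.1 in blood after tMCAO, and 5.84 and 19.7 in sham blood. For all 3 genes both brain libraries exceeded the 4 blood libraries. The fold between the 2 brain libraries was smaller per pan-myeloid count than in CPM for Gpnmb (1.00 against 2.42), Apoe, Fabp5, Nr1h3 and Tyrobp, and larger for Lpl (3.69 against 1.53), Abcg1 (2.33 against 1.04), Cd9, Trem2 and Abca1.

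Fabp5 stood at 1.39 and 1.18 per 100 pan-myeloid counts in brain after tMCAO and 0.235 to 0.342 in the blood libraries, and Abca1 at 0.891 and 1.46 in brain after tMCAO, 0.236 and 0.581 in blood after tMCAO and 0.0973 and 0.101 in sham blood. Tyrobp was highest in blood after tMCAO on this scale, at 13.6 and 21.01 against 8.83 and 11.9 in brain after tMCAO and 6.68 and 7.64 in sham blood. Nr1h3 was lowest in brain, at 0.0340 and 0.0266 against 0.150 and 0.436 in blood after tMCAO and 0.0507 and 0.152 in sham blood. Cd9 was highest in 1 sham blood library, at 7.26 and 10.1 in sham blood against 3.78 and 7.37 in brain after tMCAO. Abcg1 overlapped between tMCAO brain (0.737 and 1.72) and sham blood (1.62 and 1.37).

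With libraries scaled to the pan-myeloid counts in edgeR, the median log2 change of all genes moved from 0.06 to -0.70 for tMCAO brain against tMCAO blood. On that scale Trem2 (3.33 ± 1.00, edgeR adjusted p = 0.0303) and Gpnmb (5.90 ± 1.15, adjusted p = 4.69e-05) passed as higher in brain after tMCAO than in blood after tMCAO, and Abca1 and Abcg1 did not (adjusted p = 0.427 and 0.552). Against sham blood, tMCAO brain was higher on that scale for Apoe, Trem2, Lpl, Abca1 and Gpnmb, with log2 changes from 3.01 to 6.09, while the median of all genes was -2.01. Abcg1, Cd9 and Nr1h3 changed sign there, to -0.28 ± 0.92, -0.64 ± 0.96 and -1.74 ± 1.01 (adjusted p = 0.803, 0.579 and 0.148). Between tMCAO blood and sham blood Lpl was the 1 gene of the 10 that passed (3.08 ± 1.00, adjusted p = 0.0390). The reference counts came largely from Lyz2 (36.9% to 74.9%) and Ctss (10.3% to 37.1%), and which myeloid cells they came from was not tested.

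**Figure D3:**
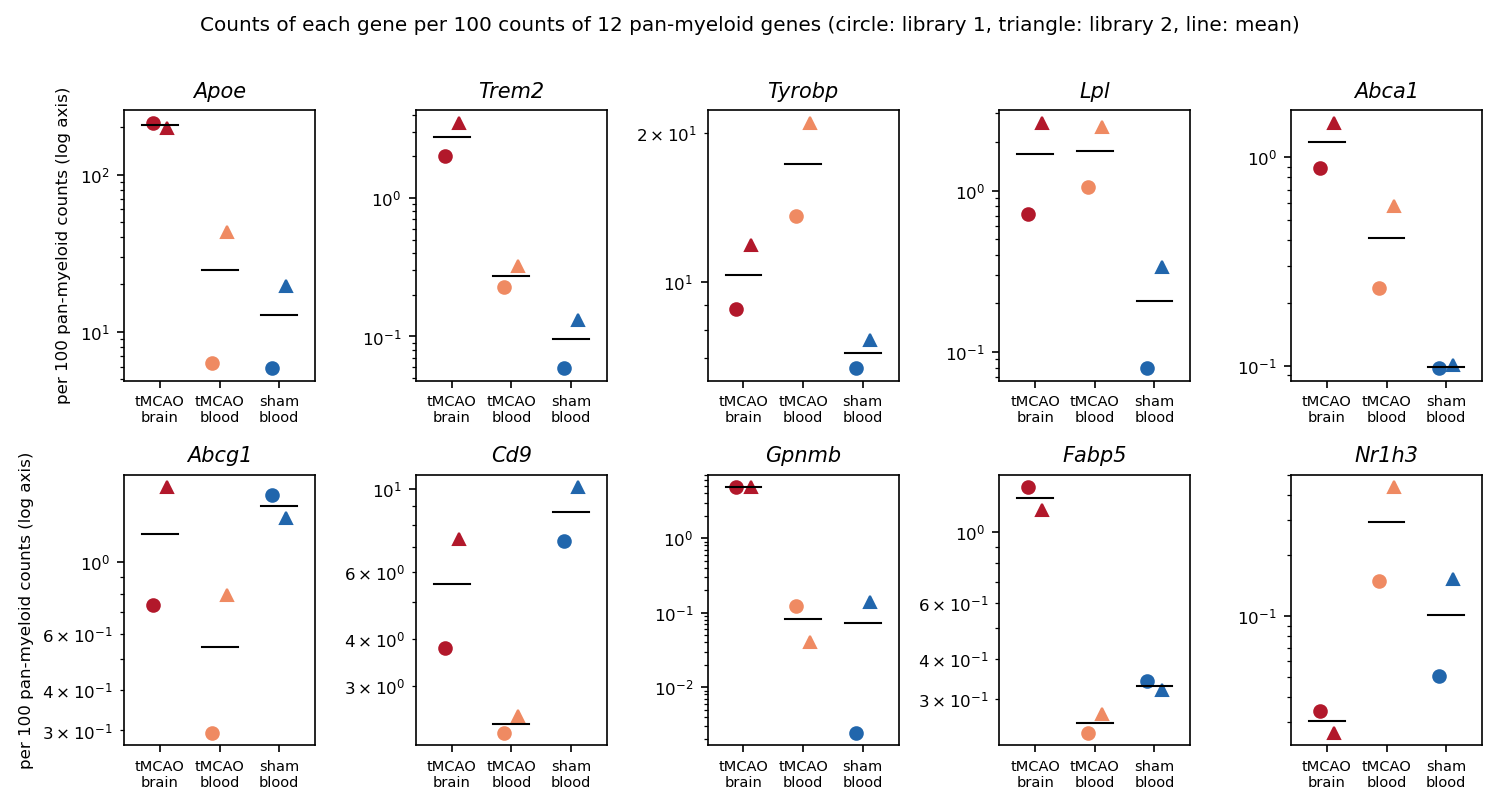
Counts of each of the 10 genes per 100 counts of the 12 pan-myeloid reference genes in the 6 libraries, on a log axis that differs between panels; circles are library 1, triangles library 2 and lines the group mean. Apoe, Trem2, Gpnmb, Fabp5 and Abca1 are highest in tMCAO brain, Tyrobp and Nr1h3 in tMCAO blood, and Cd9 reaches its highest value in sham blood.

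Genes were set beside each other per kilobase of exon, with all annotated exons of a gene joined (667 bases for Tyrobp to 10478 for Lpl). The order depends on these lengths, and which transcripts were present was not tested. Apoe led in brain after tMCAO, at 55402 and 21232 CPM per kilobase. Tyrobp followed (7324 and 4066), then Cd9 (1024 and 825), then Gpnmb (415 and 172). Trem2 (224 and 162) and Fabp5 (215 and 75.6) overlapped with Gpnmb, and Lpl (37.7 and 57.5) overlapped both Abcg1 (55.9 and 53.9) and Abca1 (47.6 and 32.3), of which Abcg1 was the higher. Nr1h3 was last, at 7.48 and 2.42. The order changed in blood after tMCAO, where Tyrobp (7405 and 3962) stood above Apoe (1077 and 2538) and Cd9 (401 and 153). There Nr1h3 (21.7 and 21.8) stood next below Lpl (36.4 and 29.7), overlapping Fabp5, and Gpnmb (6.87 and 0.788) was last. In sham blood Tyrobp (787 and 821), Apoe (215 and 659) and Cd9 (279 and 355) led, the last 2 overlapping, and Abcg1 (17.4 and 13.4) was the highest of the other 7.

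Genes with the profile closest to Apoe, Trem2 and Lpl were found by the root mean square difference of centred log2 CPM over the 6 libraries, among 6410 named genes. The nearest to Trem2 was Cxcl16, which encodes a chemokine that is also a scavenger receptor for oxidised lipoprotein, at a distance of 0.087. Cxcl16 stood at 446 and 359 CPM in brain after tMCAO, 30.8 and 15.2 CPM in blood after tMCAO and 1.73 and 3.73 CPM in sham blood. Gatm, a creatine synthesis enzyme (0.31), Npl (0.48) and Ctsd, the lysosomal protease cathepsin D (0.52), came next. The nearest to Apoe was Igf1, insulin-like growth factor 1, at 0.41, followed by Cp, ceruloplasmin, Rasgef1b and F11r (0.72 to 0.75). Lpl had no neighbour nearer than Rab7b, a small GTPase of endosomes (0.69). The distance between Trem2 and Apoe was 0.83 and that between Trem2 and Tyrobp 2.00. With 2 libraries in each of 3 groups these distances are descriptions.

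Other genes of disease-associated microglia were followed as a list of 32, all tested and none of them among the 10. Like the 10, this list and those that follow were chosen with earlier results known. Calls above the all-gene shares are therefore not independent evidence. For this and the following lists, percentages of all genes are edgeR calls at an adjusted p under 0.05. The larger all-gene numbers unadjusted and by DESeq2 are those given above with the 10 genes. In tMCAO brain over tMCAO blood 12 rose and 0 fell by edgeR (21 and 1 at an unadjusted p under 0.05, 20 and 1 by DESeq2), beside 3.53% and 1.37% of all genes, with a median log2 change of 2.54. Csf1, a macrophage growth factor, had the smallest adjusted p. Serpine2, a protease inhibitor, rose from 0.431 and 1.10 CPM to 635 and 1009 CPM (log2 change 10.05 ± 0.66, edgeR adjusted p = 0.0110). Syngr1 (8.37, adjusted p = 0.0110) and the pattern receptor gene Clec7a (3.25, adjusted p = 0.0148) also rose. In tMCAO blood over sham blood 9 rose and 1 fell, Serpine2 (log2 change -4.12), beside 4.33% and 3.15% of all genes (16 and 2 at an unadjusted p under 0.05 and by DESeq2), with a median of 1.36. Timp2, an inhibitor of matrix proteases, rose (3.99), as did the cathepsin gene Ctsl (5.99) and Axl, a receptor for dying cells (2.72). In tMCAO brain over sham blood 21 rose and 0 fell by edgeR (27 and 0 at an unadjusted p under 0.05 and by DESeq2), beside 8.01% and 2.62% of all genes, with a median of 4.27.

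Genes of liver X receptors and cholesterol handling, a list of 26 with 24 tested, went both ways in brain. Against tMCAO blood, Ch25h, Cyp27a1 and Mylip rose and 2 genes fell, among them Abca7, beside 3.53% and 1.37% of all genes. The counts were 12 and 6 at an unadjusted p under 0.05 and 10 and 5 by DESeq2, and the list's median log2 change was 0.98. Ch25h makes 25-hydroxycholesterol and Cyp27a1 makes 27-hydroxycholesterol, both ligands of liver X receptors. Ch25h stood at 72.7 and 49.6 CPM in brain after tMCAO, at 1 count over both tMCAO blood libraries and at 0 in sham blood. Its ratio of tMCAO brain to tMCAO blood was 2276 (exact 95% counting interval 408 to 89923), and over sham blood it was at least 585-fold higher against a floor of 3 counts in the group. Cyp27a1 stood at 93.8 and 49.1 CPM in brain after tMCAO and between 13.2 and 15.0 CPM in the blood libraries (log2 change 2.29 against tMCAO blood, edgeR adjusted p = 0.0333). Mylip, which encodes a ubiquitin ligase and is induced by liver X receptors, stood at 135 and 87.3 CPM in brain after tMCAO and 24.0 and 34.9 CPM in blood after tMCAO (log2 change 1.91, edgeR adjusted p = 0.0385).

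Abca7, a phospholipid transporter gene of the family of Abca1, stood at 13.6 and 13.8 CPM in brain after tMCAO, 42.5 and 43.4 CPM in blood after tMCAO and 39.5 and 30.4 CPM in sham blood (log2 change -1.64 between the tMCAO groups, edgeR adjusted p = 0.0338). Between tMCAO blood and sham blood 4 of the 24 rose, among them Lrp1, Rxra and Apoc1, and 0 fell by edgeR (9 and 1 at an unadjusted p under 0.05, 8 and 0 by DESeq2), beside 4.33% and 3.15% of all genes. Apoc1, which lies beside Apoe in a cluster of apolipoprotein genes, stood at 253 and 283 CPM in brain after tMCAO, 7.81 and 42.6 CPM in blood after tMCAO and 0.578 and 1.48 CPM in sham blood. In tMCAO brain over sham blood 9 rose and 2 fell, among the latter Abca7, beside 8.01% and 2.62% of all genes (14 and 2 at an unadjusted p under 0.05). Srebf1, another liver X receptor target, stood between 19.7 and 35.1 CPM in all 6 libraries.

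**Figure D4:**
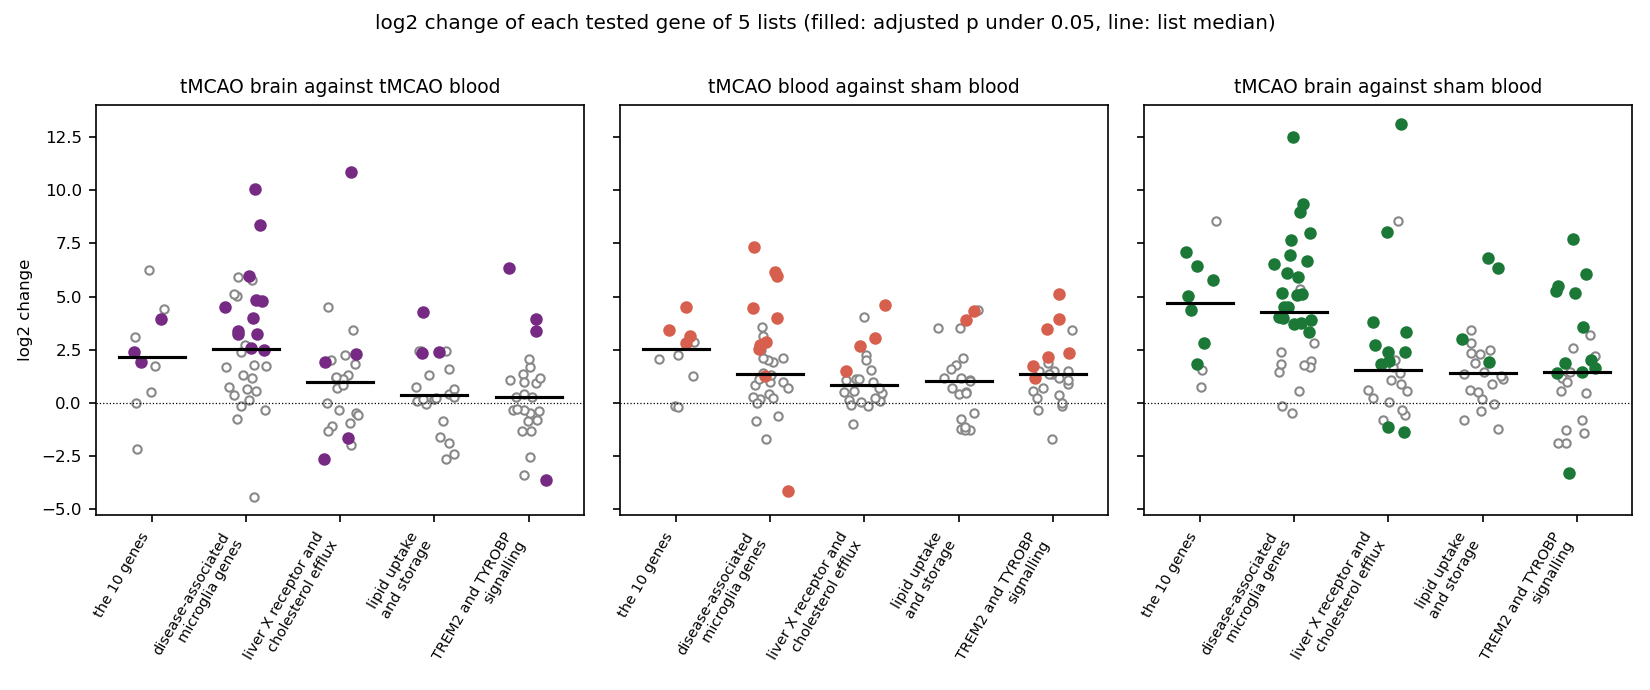
edgeR log2 change of each tested gene of the 10 and of 4 further lists in the 3 comparisons; filled points passed at an adjusted p under 0.05 and black lines are list medians. In the liver X receptor list genes passed in both directions in tMCAO brain, and in the disease-associated microglia list 21 of 32 rose over sham blood.

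Of 22 genes of lipid uptake and storage, 3 rose in tMCAO brain over tMCAO blood, Mgll, Lmf1 and Dgat1, and 0 fell by edgeR, beside 3.53% and 1.37% of all genes. At an unadjusted p under 0.05 and by DESeq2 there were 7 and 3. Over all 16657 genes there were 2792 and 1879 unadjusted, and 2099 and 1370 by DESeq2. The median log2 change of the list was 0.36. Dgat1, which makes triglyceride, stood at 72.6 and 174 CPM in brain after tMCAO and 19.9 and 27.2 CPM in blood after tMCAO. Lmf1, needed for the maturation of lipoprotein lipase, stood at 30.0 and 29.6 CPM in tMCAO brain against 7.97 and 3.74 CPM in blood after tMCAO and 12.6 and 15.0 CPM in sham blood, an order unlike that of Lpl. In tMCAO blood over sham blood the scavenger receptor genes Msr1 (log2 change 4.33) and Olr1 (3.89) rose and 0 genes fell by edgeR (7 and 3 at an unadjusted p under 0.05, 7 and 1 by DESeq2), beside 4.33% and 3.15% of all genes. Plin2, which coats lipid droplets, stood at 1006 and 330 CPM in brain after tMCAO, 1264 and 119 CPM in blood after tMCAO and 54.6 and 67.2 CPM in sham blood. Its tMCAO libraries overlapped and its differences did not pass (edgeR adjusted p of 0.981, 0.104 and 0.101 in the order of the comparisons above). Fabp4, a relative of Fabp5, stood at 24.9 and 4.66 CPM in brain after tMCAO, 107 and 77.8 CPM in blood after tMCAO and 6.35 and 9.50 CPM in sham blood, and was among the 4 genes nearest in profile to Nr1h3.

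Of 25 genes that signal with or beside TREM2 and TYROBP, 3 rose and 1 fell in tMCAO brain against tMCAO blood, beside 3.53% and 1.37% of all genes (7 and 5 at an unadjusted p under 0.05 and by DESeq2). Siglech and Clec5a, receptor genes whose proteins also pair with TYROBP, rose (log2 changes 6.33 and 3.38, edgeR adjusted p = 0.0215 and 0.0344), as did the adaptor gene Blnk (3.96, adjusted p = 0.0408). Treml4, in the gene cluster of Trem2, fell (-3.63, adjusted p = 0.0260), from 42.9 and 116 CPM in blood after tMCAO to 6.41 and 6.37 CPM. Trem1, a TYROBP-paired receptor gene of monocytes and neutrophils, stood at 54.8 and 22.1 CPM in brain after tMCAO, 58.4 and 41.3 CPM in blood after tMCAO and 1.41 and 4.996 CPM in sham blood (log2 change 3.96 for blood after tMCAO over sham, edgeR adjusted p = 0.0384). In that comparison 7 genes rose and 0 fell by edgeR (10 and 1 at an unadjusted p under 0.05 and by DESeq2), beside 4.33% and 3.15% of all genes. The kinase gene Syk (2.17, adjusted p = 0.0350), the phospholipase gene Plcg2 (2.34, adjusted p = 0.0313) and Cd33 (5.11, adjusted p = 0.0313) rose there. Between the tMCAO groups Syk and Plcg2 had log2 changes of -0.29 and -0.31, beside 0.0028 for Tyrobp. In tMCAO brain over sham blood 11 rose and 1, Treml4, fell, beside 8.01% and 2.62% of all genes (15 and 5 at an unadjusted p under 0.05 and by DESeq2).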

How the data were processed

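RNA was measured in 6 libraries of sorted cells, 2 in each of 3 groups. The authors deposited raw read counts per gene symbol, and per the submitters' processing notes STAR, HTSeq 0.11.2 and build GRCm38 were used; the strand setting is not given in the sources used here. Columns were matched to samples by name, reading S as sham and M as occlusion.

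The counts were tested here with edgeR 4.0.16 (R 4.3.3, limma 3.58.1): filterByExpr with a minimum count of 10, TMM scaling and the quasi-likelihood test in 1 fit of all 6 libraries (3 residual degrees of freedom), adjusted over 16657 genes by Benjamini-Hochberg. log2 CPM used a prior count of 2. Alternatives were other size factors, filters, DESeq2 1.42.0, limma-voom, the 2 groups alone, a replicate block, each library left out, and scaling to T cell or pan-myeloid genes. Counting intervals (95%) and floors (3 counts) cover counting error only.

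The genes and lists were chosen with earlier results of these data known. All 10 are named; from each pathway list up to 4 called genes per direction and comparison were named by smallest adjusted p, and for Apoe, Trem2 and Lpl the 4 nearest genes of at least 20 CPM on average. Nr1h2, Srebf1, Plin2, Fabp4 and Trem1 were added after their values were seen. Gene positions are from GENCODE on GRCm38 and promoters from RefSeq. 1 gene of the liver X receptor list is counted in the list but not reported here.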

Additional observations from a re-analysis of the deposited data

How the results depend on the processing

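Of the 10 genes, 3 passed in tMCAO brain against tMCAO blood; the number was 8 with no filter on low counts, 5 with a stricter filter, 8 by DESeq2, 7 by limma-voom, 0 by edgeR with only the 2 groups compared (8 at an unadjusted p under 0.05), 0 scaled to T cell identity genes (4 unadjusted), and 8 with only the second library of each tMCAO group. That alternative was chosen after seeing the data, and with 1 library in each tMCAO group its spread comes from the 2 sham libraries alone, so its calls carry no weight. It was 0 to 1 with each library left out in turn (7 to 8 unadjusted). In tMCAO blood against sham blood 4 passed; the number was 8 with no filter, 1 scaled to pan-myeloid genes, 7 with only the second tMCAO libraries (6 higher and 1, Cd9, lower) and 0 to 5 with each library left out (5 to 7 unadjusted by edgeR). In tMCAO brain against sham blood 7 passed, and 0 to 9 with each library left out (8 to 9 unadjusted by edgeR). The number there was 9 by DESeq2 and with no filter, and 8 by limma-voom. Scaled to T cell identity genes it was 10 (7570 over all genes), and scaled to pan-myeloid genes 5 (4392 over all genes). Of the 30 log2 changes (10 genes in 3 comparisons), 9 took the other sign under at least 1 of 16 alternatives; the cause was not tested. Among the 14 that had passed this held for 1, Abcg1 in tMCAO brain against sham blood (-0.28 scaled to pan-myeloid genes). The other 8 had not passed: in the same comparison Cd9 (-0.64) and Nr1h3 (-1.74), both scaled to pan-myeloid genes, and Nr1h3 also without tMCAO brain library 1 (-0.30). On the pan-myeloid scale so did Lpl between the tMCAO groups (-0.07) and Fabp5 in tMCAO blood against sham blood (-0.39). Tyrobp between the tMCAO groups lay on either side of 0, and so did Abcg1, Cd9 and Gpnmb in tMCAO blood against sham blood with 1 library left out; Abcg1 and Cd9 there were 2.79 and 3.07 scaled to T cell genes.

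Over all genes the 816 calls of tMCAO brain against tMCAO blood became 3469 by DESeq2, 3598 with no filter, 26 with only the 2 groups and 31 to 313 with each library left out. The 1246 calls of tMCAO blood against sham blood became 3789 by DESeq2 and 0 to 1240 with each library left out (2490 to 5113 unadjusted). The 1772 of tMCAO brain against sham blood became 4007 by DESeq2 and 0 to 2080 (3005 to 5655 unadjusted). Scaling to T cell genes moved the median log2 change of all genes to 1.04, 2.93 and 3.90 in the 3 comparisons, and the share of calls that were higher from 72.1%, 57.9% and 75.3% to 91.1%, 99.8% and 99.3%; scaling to pan-myeloid genes moved that share to 50.9%, 17.6% and 12.7%. Calls among the 32 disease-associated microglia genes ranged from 3 to 25, 0 to 20 and 0 to 29 over all alternatives, among the 24 liver X receptor genes from 1 to 16, 0 to 9 and 0 to 19, among the 22 lipid uptake genes from 0 to 13, 0 to 11 and 0 to 17, and among the 25 signalling genes from 0 to 13, 0 to 16 and 0 to 22.

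The labels do not say that library numbers mark shared animals or days. Across genes, deviations of library 1 from its group mean correlated at 0.30 between tMCAO brain and tMCAO blood, and at -0.03 and -0.07 between these groups and sham blood. With the replicate block 4, 4 and 7 of the 10 genes passed, the added one being Fabp5 in tMCAO brain against tMCAO blood (log2 change 3.09, edgeR adjusted p = 0.0245). With 2 libraries a group, 1 library left out leaves a lone sample that is assumed to vary like the other groups. Several genes with large changes had low blood counts. In tMCAO blood Serpine2 had 8 and 22 counts, Syngr1 29 and 12 and Siglech 25 and 77, and in sham blood Apoc1 had 9 and 21. Few counts were also found for Ch25h in blood and for Gpnmb in sham blood library 1. Gpnmb had 3 counts there and 144 in sham blood library 2, which was the less deep of these libraries (14348179 against 15216373 counts in all).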
